A study of Mus musculus with 4 samples.

Results

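The 10 genes of the AP-1 and immediate early group were followed through poly(A) RNA sequencing of mouse embryonic stem cells labelled Cbx2 knockout or wildtype. They were chosen by symbol: the Jun family (Jun, Junb, Jund), the Fos family (Fos, Fosb, Fosl1, Fosl2), and Egr1, Ier2 and Ier3. All 10 were found, each on 1 row, among the 22266 genes of the deposited table, and 7 reached the mean of 1 TPM (a length-corrected share of all transcripts in the library) that was required for testing. Fosb, Fosl1 and Fosl2 lay under it and are described by their values.

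The OHT group (n = 2) is a line labelled CBX2fl/fl-HaloTag, genotype knockout, treated with 1.0 µM 4-hydroxytamoxifen for 48 hours and labelled day 2. The EtOH group (n = 2) is the same line, genotype wildtype, given ethanol as the day 0 control. Both groups derive from a female stem cell line and carry the floxed, HaloTag-bearing Cbx2 alleles, both were grown on gelatin in serum with leukemia inhibitory factor, and both belong to batch 2. CBX2 is a subunit of Polycomb repressive complex 1, which helps to keep developmental genes silent. The labels name neither the recombinase nor a clone number. With no library that combined the drug with intact Cbx2, the drug, the days in culture and the deletion cannot be told apart. The labels do not say whether replicates were separate cultures, so p-values measure the spread between these libraries, which may be technical.

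Immediate early genes are switched on within minutes of a growth factor, stress or change of medium, by kinases that act on transcription factors already present in the cell, and most of their mRNAs are short-lived. AP-1 is a dimer of leucine zipper proteins: Jun proteins pair with each other or with Fos proteins, whereas Fos proteins need a Jun partner. JunD is the member that many resting cells make steadily, while Fos and FosB are the classical transient ones.

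The promoters of Jun and Fos are shown because these genes encode the partners of the classical AP-1 dimer. RefSeq sequences (GRCm38.p6), from 250 bases before to 50 after the annotated start, were used for 7 members. Capitals mark TGACG (the core of the cyclic AMP response element), TATAAA (the TATA box) and TGACATCA (an AP-1-like site known from the Jun promoter, whose letters were added to the search afterwards). The Jun window is chr4:95052173-95052472 on the minus strand and the Fos window chr12:85473640-85473939 on the plus strand.
Jun: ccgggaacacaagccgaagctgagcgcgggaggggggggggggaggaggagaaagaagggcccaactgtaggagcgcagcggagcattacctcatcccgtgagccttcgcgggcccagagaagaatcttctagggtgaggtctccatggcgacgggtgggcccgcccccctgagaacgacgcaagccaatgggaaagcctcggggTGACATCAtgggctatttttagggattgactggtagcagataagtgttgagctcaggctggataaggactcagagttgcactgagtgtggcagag
Fos: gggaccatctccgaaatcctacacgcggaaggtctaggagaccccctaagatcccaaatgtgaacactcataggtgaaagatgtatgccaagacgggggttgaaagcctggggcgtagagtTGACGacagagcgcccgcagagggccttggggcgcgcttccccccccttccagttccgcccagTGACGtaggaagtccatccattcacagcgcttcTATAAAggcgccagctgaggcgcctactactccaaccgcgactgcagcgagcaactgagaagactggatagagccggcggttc

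In these windows Jun held TGACATCA at -45 to -38 from its start, letters found in 3.62% of 32851 mouse promoter windows when both strands were read. Fos held TGACG at -129 to -125 and again at -66 to -62, and TATAAA at -33 to -28. TGACG occurred in 20.8% and TATAAA in 13.6% of all windows. Among the 7 members, TGACG was also in the Fosb and Junb windows. TATAAA was in that of Junb too, at 1 to 6 from the RefSeq start. For Junb the RefSeq start lay 30 bp upstream of the gene start in GENCODE, so these letters precede the GENCODE start. None of the 7 windows held TGACTCA (the AP-1 site, 5.20% of windows), TGACGTCA (the full cyclic AMP response element, which contains TGACG, 1.79%) or the CArG box of serum response factor (1.63%). These are matches of letters and say nothing of binding. Bases outside the windows, and the promoters of Egr1, Ier2 and Fosl1, were not searched, so the absence of a site holds for the windows only. The RefSeq start lay 1210 bp from the gene start in GENCODE for Jund and 671 bp for Fosl2. Their windows, counted among the 7, do not cover the GENCODE start, and neither is shown.

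None of the 7 members tested passed the threshold of 0.05 on the adjusted p, against 0.0416% of all 12029 genes tested (5 genes; limma, Benjamini-Hochberg over all genes). At an unadjusted p under 0.05 stood 2 members, Jund and Jun, both higher in OHT, where 10.5% of all genes had such a p in either direction, 6.02% higher and 4.46% lower. For 4 of the 7 (Jun, Junb, Jund and Ier3) the OHT values were both above the higher EtOH value, and for none were they both below the lower one. Over all genes the 2 groups did not overlap for 42.4%, with 23.1% above and 19.4% below. The member count depended on the scaling. It was 3 above (Jun, Jund and Ier3) and 2 below (Fos and Egr1) under median of ratios scaling and under quantile normalization. Of all genes, 24.0% were above and 24.2% below under the first of these, and 23.5% and 24.4% under the second. It was 3 above and 3 below, now with Junb among the lower, once trends with transcript length and GC content were removed, where 27.3% of all genes were above and 29.4% below. The median log2 fold change of the 7 was 0.08, and that of all tested genes was 0.02.

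**Figure D1:**
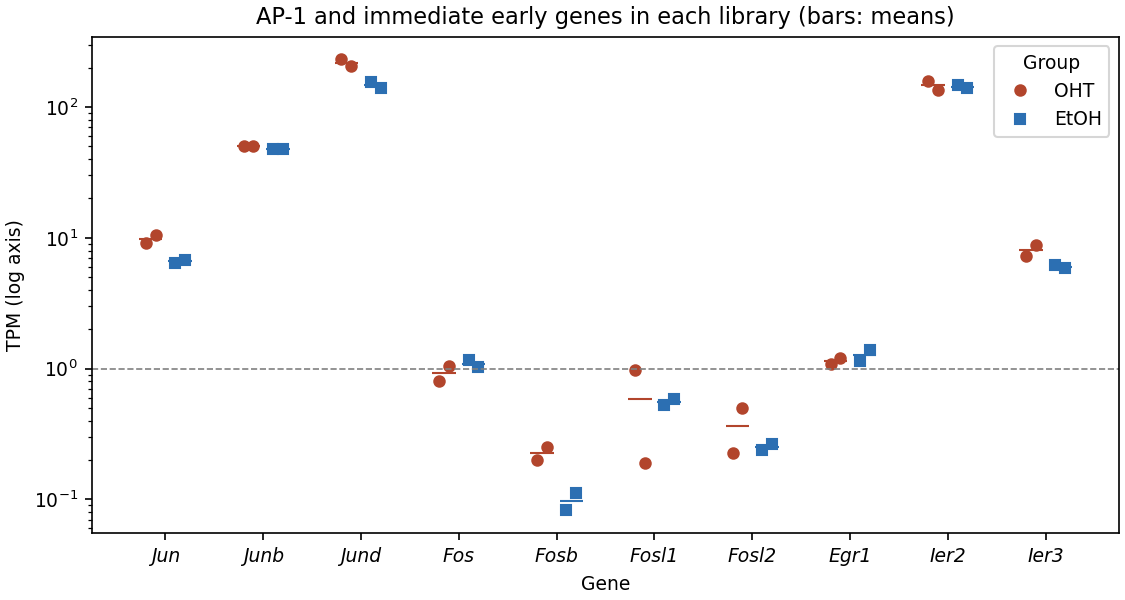
TPM on a log axis of the 10 genes in each of the 2 OHT libraries (circles) and 2 EtOH libraries (squares), with a short bar at each group's mean and a dashed line at 1 TPM. Jund and Ier2 stand above 100 TPM, and the Fos family and Egr1 lie near or under 1 TPM. Both OHT points lie above both EtOH points for Jund, Jun, Ier3, Fosb and, narrowly, Junb.

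Jund encodes the Jun protein that is made without induction in many cell types, and it was the most abundant of the 10. It was read at 232 and 205 TPM in the OHT libraries, against 155 and 140 TPM in the EtOH libraries. The lower OHT library lay well above the higher EtOH library. Means were 219 ± 18.6 TPM with OHT and 148 ± 10.9 TPM with EtOH (SD, n = 2 each), a ratio of 1.48. On the log2(TPM + 1) scale the change was 0.56 (SE 0.11, 95% interval 0.29 to 0.83), with an unadjusted p of 0.00227 and a limma adjusted p of 0.226. By p it ranked 119th of 12029. Jund has a single exon (ENSMUSG00000071076.9, chromosome 8, 70698949 to 70700616, plus strand, GRCm38). A noncoding gene annotated on the opposite strand, Gm11175, shares 52.6% of its exon bases, and the labels do not say whether reads kept their strand.

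Jun encodes c-Jun, the protein activated through phosphorylation by JNK, and stood at a far lower level. It was read at 9.19 and 10.5 TPM in the OHT libraries, against 6.47 and 6.74 TPM in the EtOH libraries, again with no overlap. Means were 9.83 ± 0.904 TPM with OHT and 6.60 ± 0.190 TPM with EtOH (SD, n = 2 each), a ratio of 1.49. The log2 change was 0.51 (SE 0.17, 95% interval 0.08 to 0.93; unadjusted p = 0.0265, limma adjusted p = 0.410). Jun too has 1 exon (ENSMUSG00000052684.5, chromosome 4, 95049034 to 95052222, minus strand). An antisense gene on the opposite strand, Junos, shares 7.28% of its exon bases.

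Junb encodes a Jun protein that is often set against c-Jun as a restrainer of proliferation. It was read at 50.3 and 50.2 TPM in the OHT libraries and 47.7 and 47.4 TPM in the EtOH libraries. The replicates of Junb lay very close together, so the groups did not overlap although the means differed by a ratio of only 1.06. The log2 change was 0.08 (SE 0.11, 95% interval -0.19 to 0.35, limma adjusted p = 0.860), and it was -0.05 once the trends of the libraries with transcript length and GC content were removed. Junb (ENSMUSG00000052837.8) lies on chromosome 8, 84974484 to 84978718, minus strand, and its exons overlap those of Prdx2 on the opposite strand over 7.52% of their bases. Prdx2, a peroxiredoxin gene, was read at 377 and 311 TPM with OHT and 356 and 350 TPM with EtOH.

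The make-up of the Jun family's mRNA is described here without a test. Summed over its 3 genes, the family stood at 291 and 266 TPM in the OHT libraries and 210 and 194 TPM in the EtOH libraries. Jund supplied 79.6% and 77.2% of that sum with OHT and 74.2% and 72.1% with EtOH. Junb supplied 17.3% and 18.9% with OHT and 22.7% and 24.4% with EtOH. The share of Jun was 3.15% and 3.93% with OHT and 3.09% and 3.47% with EtOH, with overlap. The ratio of Jund to Junb TPM was 4.60 and 4.09 in the OHT libraries, against 3.26 and 2.95 in the EtOH libraries, with no overlap. The ratio of Jund to Jun was 25.2 and 19.6 with OHT and 24.0 and 20.8 with EtOH, so the groups overlapped in it.

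**Figure D2:**
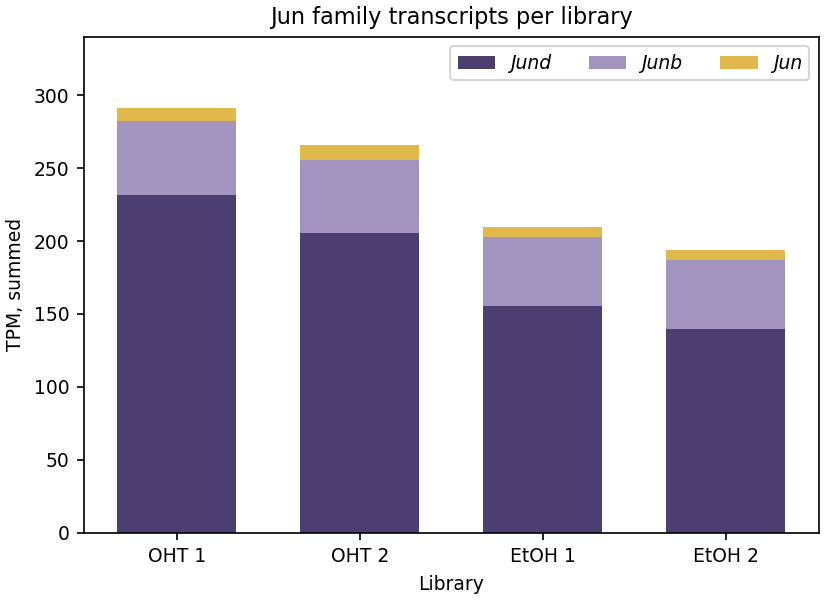
Stacked bars of TPM for Jund, Junb and Jun in the 2 OHT libraries and the 2 EtOH libraries. The bars reach 291 and 266 TPM with OHT and 210 and 194 TPM with EtOH, and most of the gap lies in the Jund part.

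Fos family mRNA was scarce in every library. Its 4 genes summed to 2.21 and 2.00 TPM with OHT and 2.00 and 1.99 TPM with EtOH. Jun family mRNA exceeded it 132-fold and 133-fold in the OHT libraries, and 105-fold and 97.5-fold in the EtOH libraries. Fos itself, the transient partner of c-Jun, was read at 0.807 and 1.05 TPM in the OHT libraries and 1.16 and 1.03 TPM in the EtOH libraries. The 2 groups overlapped, and the log2 change was -0.12 (SE 0.17, 95% interval -0.53 to 0.28, limma adjusted p = 0.857). With a mean of 1.01 TPM over the 4 libraries, Fos only just entered the test.

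Fosb, a relative of Fos best known from neurons, was read at 0.200 and 0.253 TPM with OHT and 0.0826 and 0.111 TPM with EtOH. Neither OHT value reached down to the EtOH values, which was so for 21.6% of the 17757 genes listed above 0 in any library. Without a filter on low values, the log2 change of Fosb was 0.16 (SE 0.06), with an unadjusted p of 0.0388 and a limma adjusted p of 0.459. At these levels a few reads can set a value, and TPM keeps no depth to say how many there were.

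Fosl1, which encodes FRA1, gave the widest gap of the 10 between the OHT libraries on the log2 scale. It was read at 0.976 and 0.191 TPM in the OHT libraries, on either side of the 0.523 and 0.584 TPM of the EtOH libraries. The gene shares 57.2% of its exon bases with Ccdc85b on the opposite strand, which was read at 3.56 and 2.89 TPM with OHT and 2.96 and 2.66 TPM with EtOH. Their reads cannot be told apart where strand was not kept, so the level of Fosl1 is uncertain. Fosl2, which encodes FRA2, was read at 0.227 and 0.504 TPM with OHT and 0.237 and 0.266 TPM with EtOH. One OHT library lay below both EtOH libraries and the other above.

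Of the members outside AP-1, Ier2 was the most abundant and Ier3 differed most. Ier2 encodes a small nuclear protein induced by growth factors, and lies on chromosome 8 at 84661331 to 84662852, minus strand. It was read at 157 and 135 TPM in the OHT libraries and 147 and 140 TPM in the EtOH libraries, with both EtOH values between those of OHT. Its log2 change was 0.02 (SE 0.11, 95% interval -0.26 to 0.30, limma adjusted p = 0.966), and its sign turned under 4 of 15 alternatives, among them median of ratios scaling.

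Ier3 encodes a short protein that affects cell survival under stress (chromosome 17, 35821684 to 35822923, plus strand). It was read at 7.26 and 8.83 TPM in the OHT libraries, against 6.20 and 5.86 TPM in the EtOH libraries. The groups did not overlap, but the OHT libraries lay further from each other than the lower of them lay from EtOH. The log2 change was 0.36 (SE 0.18, 95% interval -0.09 to 0.81; unadjusted p = 0.0996, limma adjusted p = 0.561).

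Egr1, a zinc finger factor that serum response factor and its partners induce, was read at 1.08 and 1.20 TPM in the OHT libraries and 1.15 and 1.38 TPM in the EtOH libraries. The groups overlapped, and the log2 change was -0.08 (SE 0.16, 95% interval -0.48 to 0.32, limma adjusted p = 0.909).

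**Figure D3:**
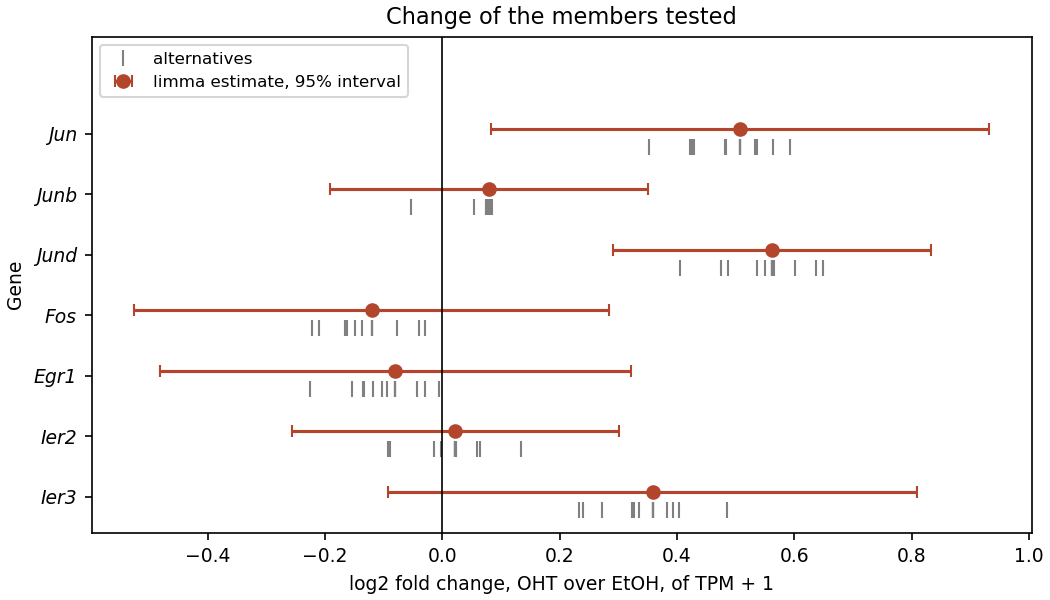
Log2 fold change (OHT over EtOH, of TPM + 1) of the 7 members tested, with circles for the limma estimate, bars for its 95% interval and grey ticks for the alternatives. The intervals of Jund (0.29 to 0.83) and Jun (0.08 to 0.93) lie above 0, and those of the other 5 members include 0.

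By level over all 4 libraries the order was Jund, Ier2, Junb, Jun, Ier3, Egr1, Fos, Fosl1, Fosl2 and Fosb. In the EtOH libraries Jund (155 and 140 TPM) and Ier2 (147 and 140 TPM) had overlapping ranges, with Jund the higher of the pair in each library. In the OHT libraries both Jund values lay above both Ier2 values. Jun lay above Ier3 in every library. Egr1 and Fos overlapped in the EtOH libraries but not in the OHT libraries. In the OHT libraries the range of Fosl1 (0.976 and 0.191 TPM) overlapped those of Fos, Fosl2 and Fosb, and those of Fosl2 and Fosb overlapped each other, so these genes could not be ranked there. In the EtOH libraries Fos, Fosl1, Fosl2 and Fosb stood in this order without overlap.

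The libraries differed along transcript length and base composition, and these values stand beside the result for Jund. Genes were split evenly into 3 sets by the length of their longest coding transcript. The OHT libraries (replicate 2 minus replicate 1) differed by a median of 0.45 on the log2 scale in the longest set and of -0.0043 in the shortest set (up to 2246 nt), which holds 5 of the 7 members tested, Jund among them. Split in the same way by GC content, the richest set had a median log2 fold change of 0.08 between OHT and EtOH, and the poorest set -0.03. Jund, at 67.1% GC, is richer than 99.8% of the genes tested. After removal of the trends with length and GC content, its change was 0.41 (unadjusted p = 0.00108, limma adjusted p = 0.0508) and that of Jun 0.43 (adjusted p = 0.0783). In that fit 24.2% of all genes had an unadjusted p under 0.05.

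Leaving out a library moved the calls. Jund passed when either OHT library was left out, with a log2 change of 0.48 (limma adjusted p = 0.0148) in the fit lacking replicate 1 and of 0.65 (adjusted p = 0.00521) in the fit lacking replicate 2. Such a fit takes the spread of the EtOH pair to hold for the single OHT value, and 2957 and 2478 of the 12029 genes passed in them. Jun (0.59, adjusted p = 0.0260) and Ier3 (0.48, adjusted p = 0.0441) passed in the fit lacking OHT replicate 1 and not in the one lacking OHT replicate 2. Without EtOH replicate 1 or 2, no member passed, while 46 and 34 genes did. Of the members, 1 (Jund) kept an unadjusted p under 0.05 without EtOH replicate 1, where 2.71% of all genes had one, and 0 did without EtOH replicate 2, where 2.47% did.

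Of the other leucine zipper genes related to AP-1, Jdp2 and Atf3 stood furthest above their EtOH levels. Of 15 on the list, 9 were tested. None passed over all genes, 3 had an unadjusted p under 0.05 and all 3 were higher (10.5% of all genes in either direction, 6.02% higher), and the median log2 fold change was 0.29. The groups did not overlap for 5 of the 9, all 5 higher with OHT, where 42.4% of all genes did not overlap and 23.1% were higher. Jdp2, which encodes a repressor that dimerises with Jun proteins, was read at 12.4 and 16.6 TPM with OHT and 6.05 and 6.04 TPM with EtOH (log2 change 1.12, SE 0.20, limma adjusted p = 0.205). Atf3, a stress-induced factor that also binds Jun proteins, was read at 7.90 and 8.49 TPM with OHT and 3.69 and 3.97 TPM with EtOH (0.93, SE 0.17, adjusted p = 0.211). For both genes the groups did not overlap. Atf7, a relative of Atf2, was read at 10.3 and 11.0 TPM with OHT and 7.55 and 7.34 TPM with EtOH (0.46, SE 0.17, adjusted p = 0.429).

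Of 36 other immediate early genes, 29 were tested, and none passed over all genes. At an unadjusted p under 0.05, 5 were higher and 2 lower (6.02% and 4.46% of all genes), with a median log2 fold change of 0.13. The groups did not overlap for 17 of them, 13 higher and 4 lower (23.1% and 19.4% of all genes). Higher were Rhob, a small GTPase gene (31.0 ± 0.552 TPM with OHT, 21.2 ± 0.263 with EtOH; adjusted p = 0.291), and Dusp1, the phosphatase gene that switches off p38 and JNK (23.0 ± 2.95 and 14.2 ± 1.22; adjusted p = 0.296). Nfkbia, which encodes the inhibitor of NF-kappa-B, stood at 45.2 ± 1.71 TPM with OHT and 33.2 ± 1.09 TPM with EtOH, and the cyclooxygenase gene Ptgs2 at 4.65 ± 1.25 and 2.69 ± 0.442 TPM. Lower were Gadd45b, a stress sensor gene (19.7 ± 1.48 TPM with OHT, 28.7 ± 0.337 with EtOH; adjusted p = 0.308), and Ccn2, a matrix protein gene responsive to YAP (15.8 ± 1.39 and 21.5 ± 0.528; SD, n = 2 each; limma adjusted p = 0.425). The Egr1 relatives Egr2, Egr3 and Egr4 and the neuronal factor gene Npas4 lay under 0.2 TPM in every library.

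None of the kinases and cofactors that act upstream of these genes passed over all genes or had an unadjusted p under 0.05, with all 28 on the list tested. The list's median log2 fold change was 0.00, with 5 genes above and 5 below without overlap, beside the same 23.1% and 19.4% of all genes. Srf, which encodes serum response factor, stands on this list and on that of immediate early genes, and was read at 27.9 and 33.8 TPM with OHT and 36.9 and 38.9 TPM with EtOH (-0.30, SE 0.15, limma adjusted p = 0.550).

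Of 20 genes known as AP-1 targets in other cells, 12 were tested and none passed over all genes. At an unadjusted p under 0.05, 2 were higher and 1 lower (6.02% and 4.46% of all genes), and the median log2 fold change was 0.04. Vegfa, which encodes the angiogenic growth factor, was read at 18.1 and 22.2 TPM with OHT and 6.71 and 6.97 TPM with EtOH, a log2 change of 1.42 (SE 0.18, limma adjusted p = 0.0995). Mmp14, a membrane metalloprotease gene, stood at 8.63 ± 1.23 TPM with OHT and 5.31 ± 0.241 TPM with EtOH, and Vim, the vimentin gene, at 218 ± 14.4 and 270 ± 4.44 TPM (SD, n = 2 each). The classical targets Mmp3, Mmp10 and Mmp13 and the chemokine gene Ccl2 were listed at 0 in all 4 libraries.

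**Figure D4:**
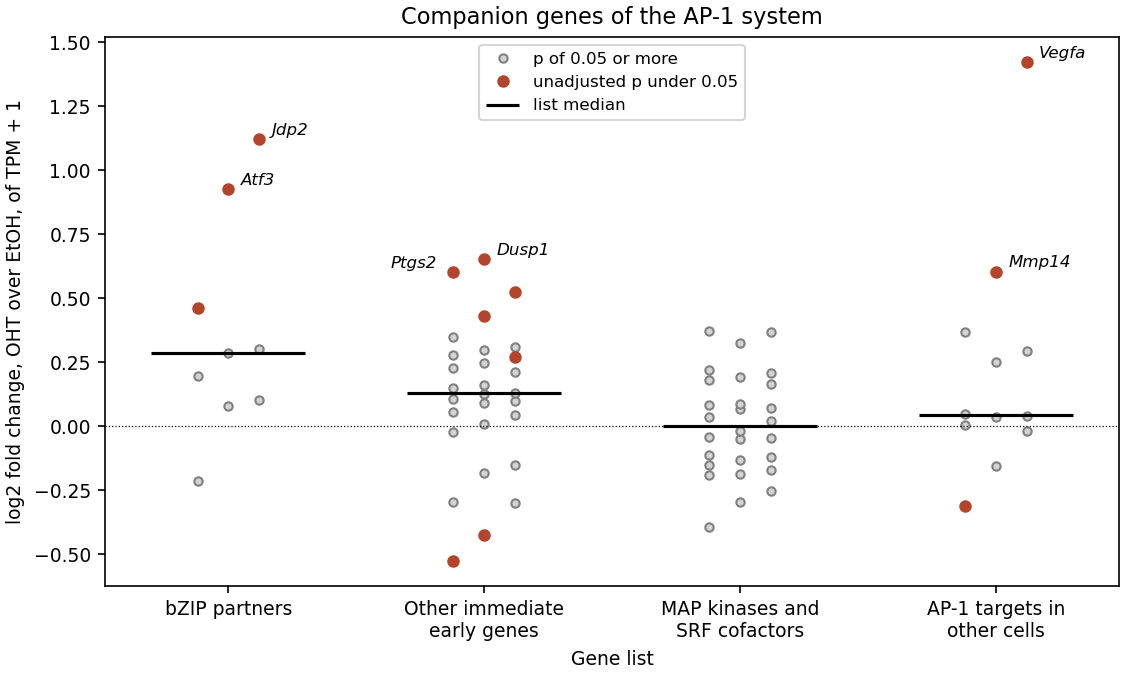
Log2 fold change (OHT over EtOH, of TPM + 1) of each tested gene on 4 companion lists, in colour where the unadjusted p was under 0.05, with a black line at the list's median. Medians are 0.29 for the leucine zipper partners, 0.13 for other immediate early genes, 0.00 for the upstream kinases and 0.04 for targets in other cells, beside 0.02 for all genes tested.

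Among all genes tested, the profiles closest to that of Jund over the 4 libraries were those of Cfap69, Hebp1 and Soat2, with root mean square differences of 0.02, 0.03 and 0.03 on the centred log2 scale. Closest to Jun were Zfp839, Adcy3 and Plcd4, each at 0.02. With 4 libraries such likeness is a description only.

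Cbx2 was read at 0.749 and 1.14 TPM in the OHT libraries, against 2.29 and 2.71 TPM in the EtOH libraries (log2 change -0.85, SE 0.19, limma adjusted p = 0.265), in the direction of the labels. The ratio of means was 0.38, so some Cbx2 mRNA was still read in both OHT libraries. All 8 stem cell markers were present, with Pou5f1 at 2229 and 2106 TPM with OHT and 1856 and 1862 TPM with EtOH. They summed to 5501 and 5684 TPM with OHT and 4981 and 5022 TPM with EtOH. At an unadjusted p under 0.05, 3 of the 8 were higher and 1 lower (6.02% and 4.46% of all genes), and 6 stood above and 1 below without overlap (23.1% and 19.4% of all genes). The lower one was Utf1, a chromatin-associated stem cell factor, at 335 and 318 TPM with OHT and 397 and 373 TPM with EtOH. The 10 fibroblast markers summed to 10.6 and 16.6 TPM with OHT and 9.41 and 8.65 TPM with EtOH. Most of that was Thy1 (7.64 and 10.9 TPM with OHT, 6.41 and 5.43 TPM with EtOH), Postn was listed at 0 throughout, and Col1a2, Col3a1, Dcn and Lum lay under 0.3 TPM in every library. The 9 primitive endoderm markers summed to 36.3 and 53.4 TPM with OHT and 37.5 and 41.5 TPM with EtOH, and the 7 trophoblast markers to 72.7 and 78.4 TPM and to 66.6 and 67.3 TPM. Tested were 2 fibroblast, 6 endoderm and 5 trophoblast markers. In each of these lists 1 was higher at an unadjusted p under 0.05 and 0 were lower (6.02% and 4.46% of all genes). The part of all these markers in the values of the 10 genes was not tested. In bulk RNA, more cells that express a gene and more mRNA per cell cannot be told apart.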

How the data were processed

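Poly(A) RNA sequencing of 4 libraries was used, prepared by poly(A) isolation and an NEBNext Ultra II kit, as the labels' protocols state. The deposited values are TPM, made by the authors with Trim Galore and Salmon on GRCm38 (mm10), per the submitters' processing notes; no version, annotation release, bias setting or strandedness is stated there. TPM are scaled to a fixed total (1000000 in EtOH replicate 1, the only library summed), so depth is unknown and no counting interval or floor was computed. The table has 2 more columns that match no sample used here, and they were not used.

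Values were analysed as log2(TPM + 1), so fold changes of low genes are understated. The 12029 genes that averaged 1 TPM or more were compared with limma 3.58.1 in R 4.3.3 (a two-sided moderated test with the trend option; 2 residual and 4.01 prior degrees of freedom), adjusted by Benjamini-Hochberg over all genes at a threshold of 0.05, and the fit was checked on simulated data. With 2 libraries a group, the smallest two-sided p of an exact permutation test is 0.333, so none was run.

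The members and lists were chosen with earlier results of these data known. All members and Cbx2 are named, with at most 6 genes of each companion list that had an unadjusted p under 0.05 (smallest p first) and, for each such member, the 3 genes of most similar profile, predicted gene models left out. Srf, the Egr1 relatives, Npas4 and the genes listed at 0 were named after their values were seen. Coordinates, length and GC content come from GENCODE release M21, promoters from RefSeq. A blastn 2.17.0 search (95% identity over at least 50% of a transcript) found no match for a member other than Ccdc85b for Fosl1. Ccdc85b is not a copy, since it shares exon bases with Fosl1 on the opposite strand. Plots were drawn with matplotlib 3.10.9.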

Additional observations from a re-analysis of the deposited data

How the results depend on the processing

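Each of the 7 members tested was refitted under up to 15 alternatives: pseudocounts of 0.1, 0.5 and 5, no filter, a minimum of 5 TPM (which leaves out Fos and Egr1), quantile normalization, median of ratios scaling, robust moderation, limma without a trend, the replicate number as a block, removal of trends with length and GC content, and leaving out each library. Jund (0.41 to 0.65), Jun (0.35 to 0.59) and Ier3 (0.23 to 0.48) stayed positive and Fos (-0.22 to -0.03) and Egr1 (-0.23 to -0.01) negative on the log2 scale throughout. Ier2 turned negative under median of ratios scaling (-0.00275), after removal of the length and GC trend (-0.0932) and in 2 of the fits that left out a library, without EtOH replicate 2 and without OHT replicate 1 (range over all 4 such fits -0.0889 to 0.134), and Junb after removal of the length and GC trend (-0.0526). The cause was not tested.

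The count of all genes past the threshold, 5 as reported, was 0 with no filter (1838 at an unadjusted p under 0.05), 3 with median of ratios scaling, quantile normalization or limma without a trend, 238 after removal of the length and GC trend, and from 34 to 2957 with a library left out. Of the members, 0 passed as reported and from 0 to 3 with a library left out. Members with an unadjusted p under 0.05 numbered 2 as reported and from 0 to 3 with a library left out, where 2.71% and 2.47% of all genes had such a p without EtOH replicate 1 and 2, and 42.8% and 37.3% without OHT replicate 1 and 2. Members without overlap numbered 4 as reported and from 5 to 7 with a library left out, beside 42.4% of all genes as reported and 54.7%, 55.8%, 88.2% and 86.1% in the same 4 fits, since fewer libraries have fewer ways to overlap.

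With the replicate number as a replicate block, 474 genes passed (261 higher, 213 lower) and so did 1 member, Jund (limma adjusted p = 7.82e-04). The labels do not say that the numbers pair the libraries. Over genes, the differences between replicates 2 and 1 in the 2 groups had a Pearson r of 0.29. The unknown depth limits Fos, Fosb, Fosl1, Fosl2 and Egr1 most, all near or under 1 TPM.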
